A study of Drosophila melanogaster with 12 samples.

Results

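Culd, CG10433, Nagk, CG13305, Dip-B and CG1441 are 6 genes whose transcripts in adult fly heads stood high around dawn on both days of a circadian time course. They were taken by gene symbol because a 24-h curve over both days fitted them among the best of all transcripts with a peak between 22 and 3 h. Each is measured by 1 probe set, so the group is 6 of 13966 probe sets tested and 6 of 10844 genes with a probe set. The level pattern over the day chose these genes, so their curves are given as a description and carry no test.

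Heads came from adult Drosophila melanogaster of a y w stock, which carries mutations in yellow (body colour) and white (eye pigment) in every sample. Flies entrained to equal spans of light and dark, each 12 h long, were collected every 4 h through 1 more such day (LD) and through the day after it in constant darkness (DD). Zeitgeber times (ZT) name the LD samples and circadian times (CT) the DD samples, both counted in hours from lights-on or from the hour when lights would have come on. Each of the 12 arrays, 6 per day, held RNA of roughly 100 to 200 pooled heads and no time was repeated, so the spread of single arrays around a fitted curve is the available error. The sources used here do not give the age or sex of the flies. Values are log2 expression from the RMA procedure, on which a difference of 1 is a doubling.

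The fly clock runs on a transcriptional feedback loop. The CLOCK and CYCLE proteins switch on period (per), timeless (tim) and vrille (vri), whose transcripts accumulate around dusk and early night, and the PERIOD and TIMELESS proteins later shut that activation off. A second loop, in which the VRILLE protein represses Clk, gives Clk RNA the opposite phase, near dawn. In the head many clock-bearing cells are photoreceptors and glia, beside the small set of pacemaker neurons in the brain.

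The arrays were not of equal quality. Control probe sets at the 3′ end of transcripts (actin, eIF-4a, GAPDH) exceeded those at the 5′ end by 3.45 (log2) at CT12, by 3.12 at ZT4 and by 2.64 at CT4. This control difference lay between 1.69 and 2.20 on the other 9 arrays. The mean of 5 measured photoreceptor markers (trp, trpl, Arr1, Arr2 and inaD) was 9.32 at CT12 and 10.37 at CT4, its extremes. Markers of flight muscle (9 measured, 5.89 to 8.40), midgut (9, 5.70 to 8.42) and male accessory gland and testis (11, 4.06 to 6.27) also moved between arrays. Head fat body markers (7) ranged from 9.13 to 10.31, ovary markers (8) from 6.50 to 7.13, glial markers (6) from 5.96 to 6.43 and neuronal markers (4) from 4.32 to 4.79. CT12 was the highest array for muscle and male markers and the lowest for photoreceptor and fat body markers. As these are bulk heads, fewer cells of a type and less RNA per cell cannot be told apart.

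Culd encodes a membrane protein with CUB and LDLa domains that has been tied to the endocytic trafficking of rhodopsin and of the TRPL channel in fly photoreceptors. Its log2 level was 8.34 at ZT4, 7.73 at ZT8, 7.26 at ZT12, 7.28 at ZT16, 7.98 at ZT20 and 8.44 at ZT24. In darkness it was 8.55 at CT4, 8.06 at CT8, 7.30 at CT12, 7.78 at CT16, 7.97 at CT20 and 8.43 at CT24. The 4 samples at 24 h and 4 h of both days were the 4 highest of all 12. The 3 lowest were ZT12, ZT16 and CT12. Ordered by level, 3 of the 11 steps from 1 sample to the next exceeded the residual spread of 0.139 (SD around the curve): from ZT4 to CT8, from CT20 to CT16, and from ZT8 to CT12. The other 8 steps between neighbouring samples in that order were smaller than the spread.

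The span of Culd from lowest to highest sample was 2.28-fold in LD and 2.38-fold in DD. The fitted amplitude, from mean to peak, was 0.60 ± 0.06 (log2, SE) and the fitted peak time 1.57 ± 0.36 h. The curve took up 93.4% of the variance within days. The residual was largest at CT16, where the value lay 0.25 above the curve, and lowest at CT12, 0.16 below it. Culd was the only 1 of the 13966 probe sets with a limma adjusted p under 0.05 for rhythm (0.00716%), and 3.34% had an unadjusted p under 0.05. Since Culd was chosen on that contrast, nothing is read from this call.

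**Figure D1:**
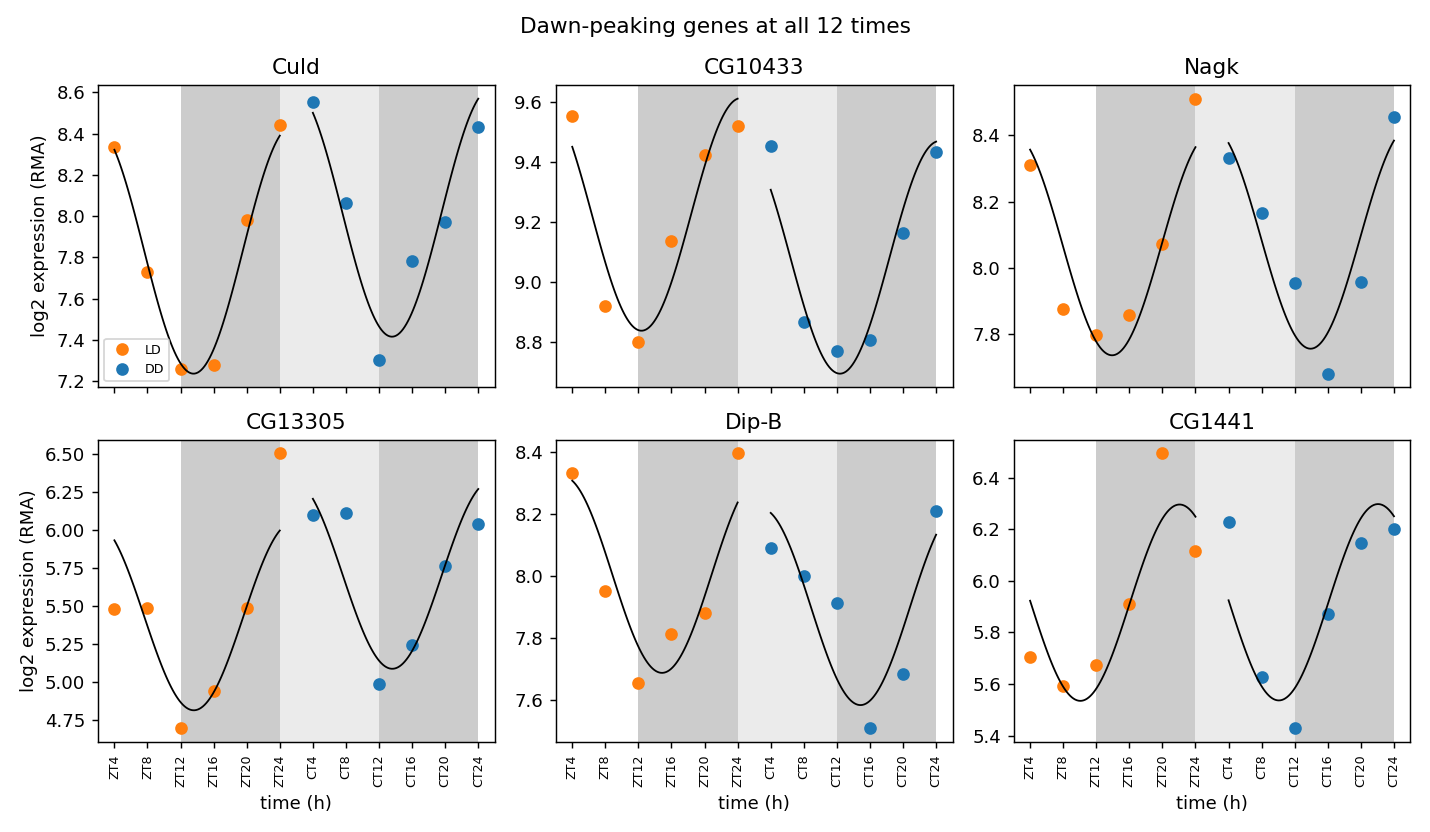
Log2 expression (RMA) of the 6 genes at the 12 times, orange for LD and blue for DD. Black is the common 24-h curve fitted over both days, drawn around the mean of each day. Dark grey is night or subjective night and light grey the subjective day in darkness. Each gene fell towards 8 to 16 h and recovered by 24 h on both days, for instance Culd from 8.34 at ZT4 to 7.26 at ZT12 and 8.44 at ZT24.

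Nagk, Dip-B and CG1441 encode metabolic enzymes. N-acetylglucosamine kinase, the product of Nagk, returns N-acetylglucosamine from broken-down glycans to the amino sugar pool. Nagk stood at 8.31, 7.88, 7.80, 7.86, 8.07 and 8.51 (log2) from ZT4 to ZT24 in 4-h steps. From CT4 to CT24 it stood at 8.33, 8.17, 7.95, 7.68, 7.96 and 8.45. The 24-h samples were the highest of each day, and the low point lay at ZT12 in LD and at CT16 in DD.

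Dip-B encodes a dipeptidase, an enzyme that splits dipeptides. Its levels from ZT4 to ZT24 were 8.34, 7.95, 7.66, 7.81, 7.88 and 8.40. From CT4 to CT24 they were 8.09, 8.001, 7.91, 7.51, 7.68 and 8.21. Dip-B shared its extreme times with Nagk, highest at 24 h on both days and lowest at ZT12 and CT16.

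CG1441 is a predicted fatty acyl-CoA reductase, of the enzyme family that makes fatty alcohols for waxes and other lipids. It read 5.70, 5.59, 5.67, 5.91, 6.50 and 6.12 from ZT4 to ZT24. It read 6.23, 5.63, 5.43, 5.87, 6.15 and 6.20 from CT4 to CT24. This gene differed from the other 5 in that its LD high point came before dawn, at ZT20, and its LD low point at ZT8. In darkness its high point was at CT4, where the value lay 0.30 above the curve, and its low point at CT12.

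For CG10433 and CG13305 no role is given here. CG10433 stood at 9.55, 8.92, 8.80, 9.14, 9.42 and 9.52 from ZT4 to ZT24. It stood at 9.45, 8.87, 8.77, 8.81, 9.16 and 9.43 from CT4 to CT24. The 4-h sample was the highest and the 12-h sample the lowest on both days.

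CG13305 stood at 5.48, 5.48, 4.69, 4.94, 5.49 and 6.51 from ZT4 to ZT24. It stood at 6.10, 6.11, 4.98, 5.24, 5.76 and 6.04 from CT4 to CT24. This was the most uneven of the 6 curves, since ZT24 lay 0.51 above the fit and ZT4 lay 0.45 below it. The ZT24 value made the LD span 3.52-fold, against 2.19-fold in DD.

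Fitted amplitudes were largest for CG13305 and Culd. CG13305 had a fitted amplitude of 0.62 ± 0.12 (log2, SE), a peak-to-trough ratio of 2.36, beside 2.30 for Culd. Without ZT24 the CG13305 amplitude was 0.51. CG10433, CG1441, Nagk and Dip-B had amplitudes of 0.39 ± 0.05, 0.38 ± 0.07, 0.33 ± 0.05 and 0.32 ± 0.06, with ratios of 1.71, 1.70, 1.59 and 1.55. The median amplitude of all probe sets was 0.07. The curve took up between 73.8% of the variance within days, for CG13305, and 93.4%, for Culd.

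Fitted peaks ran from the late night into the early morning. CG1441 peaked at 22.1 ± 0.70 h and CG10433 at 0.37 ± 0.48 h. Culd, CG13305 and Nagk followed at 1.57 ± 0.36, 1.60 ± 0.71 and 1.92 ± 0.62 h, which are closer together than their errors. Dip-B came last at 2.85 ± 0.72 h. All 6 mean levels, from 5.57 for CG13305 to 9.15 for CG10433, lay above the array medians of 4.93 to 4.96, a statement on signal and not on abundance between genes.

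The edge of the group was not a gap. By rhythm p the members held ranks 1, 2, 6, 10, 11 and 12 of all probe sets, and the next probe set with a peak in the window was CG17108 at rank 13, which peaked at 22.3 h (amplitude 0.39 ± 0.07). Dip-B, at rank 12, was the last one inside. After CG17108 came CG31344 (amplitude 0.18, peak 23.3 h), tko, which encodes a mitochondrial ribosomal protein (0.22, 1.74 h), CG6290 (0.22, 2.93 h) and CG6126 (0.26, 2.85 h). Of the 466 probe sets with an unadjusted p under 0.05, 81 peaked between 22 and 3 h (17.4%, or 0.58% of all probe sets), beside 17.7% of all probe sets whose fitted peak fell there.

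The group was set beside tim and vri, whose RNA peaks around dusk and early night. The arrays hold 3 probe sets for tim, and all tim values given for the gene here come from the one with the highest mean level. Another tim probe set, at rank 5 by rhythm p, rose less from mean to peak (0.80 against 1.12, log2). Its fitted curve was highest at 16.1 h. The third tim probe set was not among the first 12 by rhythm p, and its values are not given here. On the probe set used, tim RNA was highest at ZT16 (7.70) and CT16 (6.35) and lowest at ZT8 (5.05) and CT4 (4.39). Vri RNA was highest at ZT16 (7.54) and CT12 (7.24) and lowest at ZT24 (5.46) and CT4 (5.42). Where Culd was at its 3 lowest samples, ZT12, ZT16 and CT12, vri was at its 3 highest.

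Measured from the fitted peaks, CG10433, Culd, CG13305, Nagk and Dip-B lay 11.5 ± 0.72, 11.3 ± 0.65, 11.3 ± 0.89, 10.9 ± 0.82 and 10.01 ± 0.90 h from vri (SE). For CG1441 the distance was 9.22 ± 0.89 h. From tim, which peaked at 16.2 ± 0.50 h, the distances were 10.6 ± 0.87 h for Dip-B, 9.71 ± 0.80 h for Nagk, 9.39 ± 0.87 h for CG13305, 9.36 ± 0.62 h for Culd and 8.16 ± 0.69 h for CG10433. CG1441 was 5.87 ± 0.86 h from tim, the shortest of these distances. Each gene except Dip-B lay farther from the vri peak, at 12.9 ± 0.54 h, than from the tim peak. The genes were chosen for a fitted peak inside a set window around dawn, and that window bounds all these distances. Most of the window also lies farther from the vri peak than from the tim peak. The distances are therefore a description, and nothing is read from their size or order.

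**Figure D2:**
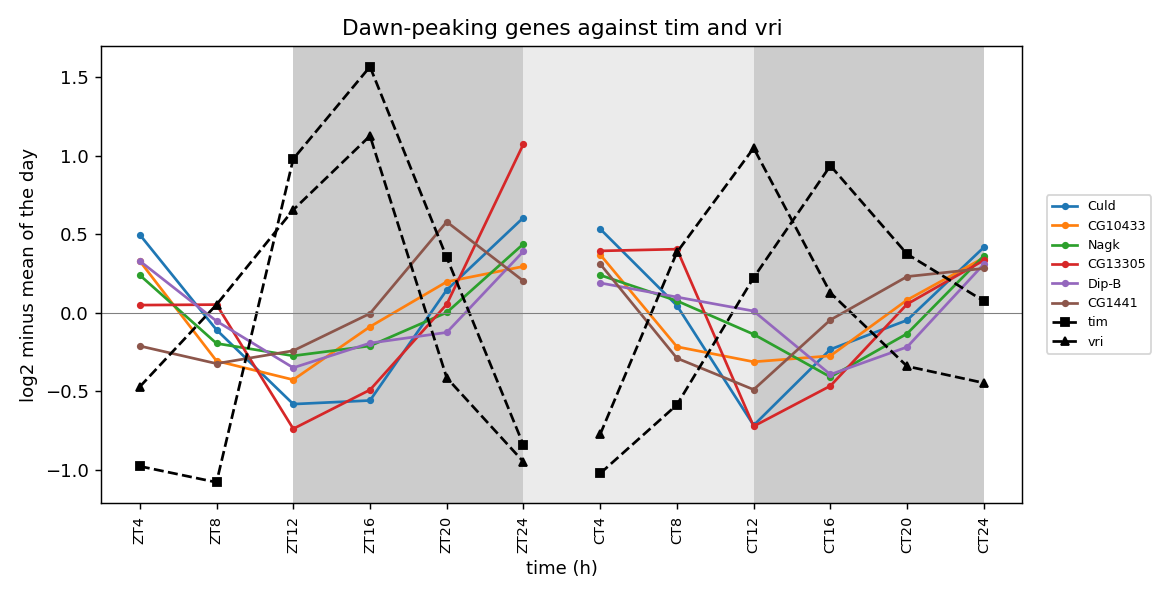
Log2 value minus the gene's mean of that day for the 6 genes (solid) and for tim (squares) and vri (triangles, dashed) at the 12 times; shading as night, subjective day and subjective night. The solid lines lay below 0 at ZT12 and ZT16 where tim and vri lay above it, apart from a CG1441 value near 0 at ZT16, and the order turned at ZT24 and CT4.

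Over the 12 arrays, the Pearson correlation of Culd with vri was -0.93 and the Spearman correlation -0.88. It was -0.96 within LD, -0.90 within DD and -0.90 without ZT12 and ZT16, the samples farthest from the median of Culd. With tim it was -0.72 (Spearman -0.68), and -0.44 without ZT12 and ZT16, so much of that relation rested on those samples. For the other 5 genes the correlation with vri lay between -0.81 for CG13305 and -0.51 for Dip-B. With tim it lay between -0.72 for CG13305 and 0.04 for CG1441. These correlations share arrays and a daily curve that chose the genes, and describe the 12 samples only.

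Among themselves the 6 genes gave 15 pairs, all positive, with Pearson correlations from 0.12 to 0.92 and a median of 0.70. Spearman correlations ran from 0.11 to 0.90. The closest pair was Nagk with Dip-B (0.92, and 0.87 without ZT24 and CT24), the enzymes of amino sugar salvage and dipeptide breakdown. The loosest was Dip-B with CG1441 (0.12), the last and the first to peak. Within LD the median was 0.84 and within DD 0.75, again with all 15 pairs positive. Genes chosen for a good fit to a 24-h curve with nearby peaks correlate positively through that choice. Nothing is therefore read from these signs.

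Residuals were what remained after the day mean and the 24-h curve were taken out. Their size had a part in the choice of the genes, since small residuals give a good fit. Residuals of the 15 pairs had correlations from -0.51 to 0.86 with a median of 0.12, and 9 were positive. Nagk and Dip-B stayed together, at 0.86: both lay above their curves at ZT24 (0.15 and 0.16) and at CT12 (0.16 and 0.24), and below them at CT20 (-0.14 and -0.15). CG10433 with CG13305 was the lowest pair, at -0.51. The residuals of Culd and vri correlated at -0.62, and those of Dip-B and vri at 0.66.

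**Figure D3:**
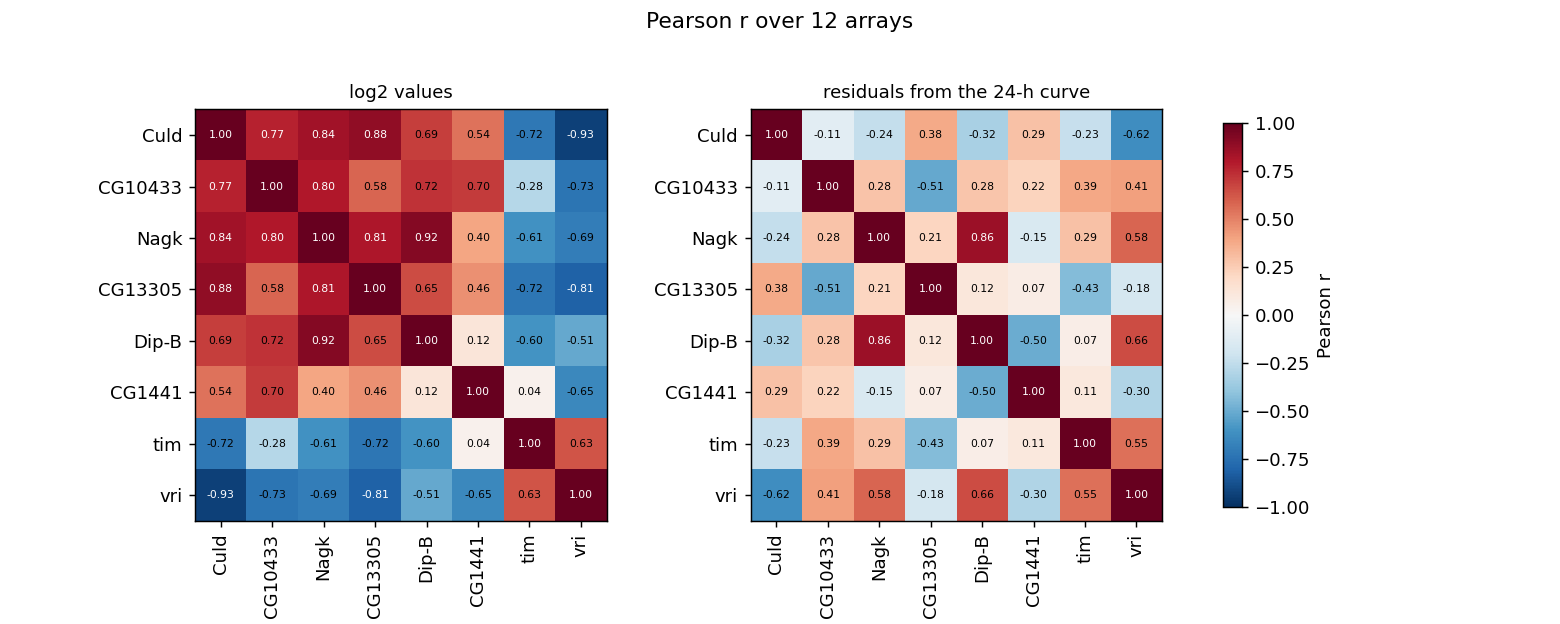
Pearson correlation over 12 arrays between the 6 genes, tim and vri, left for log2 values and right for residuals after day mean and 24-h curve; colour runs from -1 (blue) to 1 (red). The positive block of the 6 genes at left, with a median of 0.70, thinned to a median of 0.12 at right, with Nagk and Dip-B at 0.86.

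Residuals also moved with array quality, and its part in them was not tested. Their correlation with the 3′ to 5′ control difference was 0.66 for CG10433, 0.46 for Dip-B, 0.24 for Nagk, -0.31 for CG1441, -0.37 for Culd and -0.55 for CG13305. With the mean of the photoreceptor markers it was 0.32 for Culd, 0.48 for CG1441 and 0.46 for CG13305, and between -0.46 and -0.25 for the other 3 genes. With the head fat body markers it was -0.50 for Nagk and -0.53 for Dip-B, the pair whose residuals correlated at 0.86, and with the neuronal markers it was -0.68 for CG10433. The log2 levels themselves correlated with the control difference between -0.38 (CG1441) and 0.30 (Dip-B), and with the photoreceptor markers between -0.05 (Dip-B) and 0.59 (CG1441), with 0.45 for CG13305. Without ZT4 and CT12 the amplitudes were 0.56 for Culd, 0.39 for CG10433, 0.38 for Nagk, 0.69 for CG13305, 0.37 for Dip-B and 0.36 for CG1441. All 6 peaks then lay between 22.5 h (CG1441) and 2.42 h (Dip-B). With CT4 left out as well, the CG1441 peak was at 21.6 h, outside the window of 22 to 3 h, the CG10433 peak was at 23.6 h and the amplitude of CG13305 was 0.75.

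Fitted separately, the days gave similar curves, with a later fitted peak in darkness for each of the 6 genes. The peak moved from 1.38 h in LD to 1.79 h in DD for Culd, from 23.8 to 0.99 h for CG10433 and from 0.80 to 3.06 h for Nagk. It moved from 0.84 to 2.57 h for CG13305, from 1.87 to 4.07 h for Dip-B and from 20.6 to 23.6 h for CG1441. The DD peak was thus later for 6 of 6 genes, by from 0.41 ± 0.78 h (SE) for Culd to 2.92 ± 1.06 h for CG1441. Among the 81 probe sets with an unadjusted rhythm p under 0.05 and a peak between 22 and 3 h, 48.1% were later in DD, and 54.7% were among all 466 with such a p.

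In limma's test of a difference in rhythm between days, no probe set passed (0 of 13966, 0%; 3.53% had an unadjusted p under 0.05). For the 6 genes the unadjusted p lay between 0.0757 (CG1441) and 0.584 (Culd), with adjusted p of 0.858 to 0.896. Choosing genes that a common curve fitted well leaves little room for a difference between days. All 6 also had a smaller amplitude in DD, by 0.15 for CG13305, 0.11 for Culd and 0.07 for Dip-B, and by under 0.01 for CG10433, Nagk and CG1441. Among the 466 probe sets with an unadjusted rhythm p under 0.05, 53.2% had a smaller DD amplitude. The tim peak was 1.35 ± 0.72 h later in DD and the vri peak earlier (shift -1.11 ± 1.01 h).

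**Figure D4:**
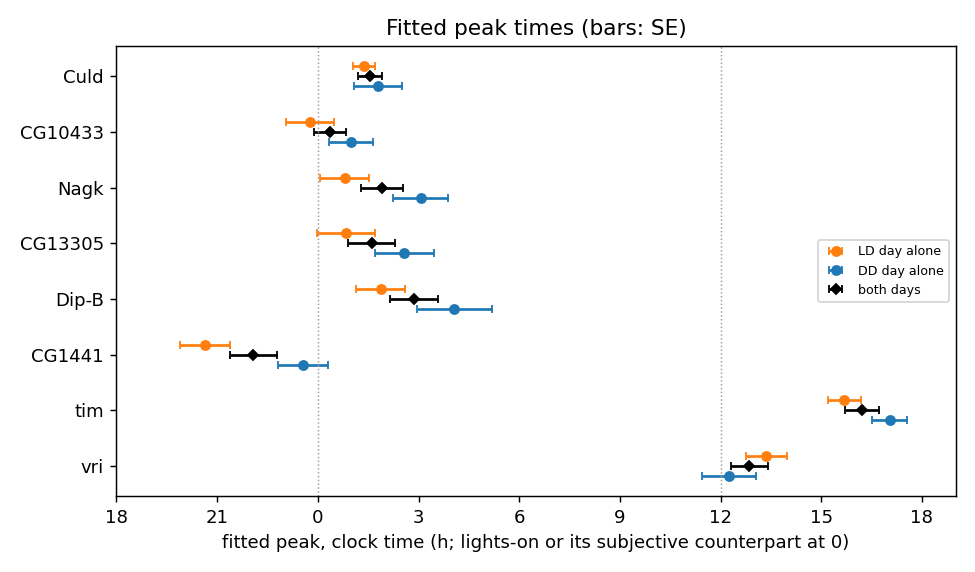
Fitted peak on the clock (h) of each gene for LD alone (orange), DD alone (blue) and both days (black), with SE bars. The blue points lie to the right of the orange ones for the 6 genes, by 0.41 h for Culd to 2.92 h for CG1441, and for tim, and to the left for vri.

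The mean level of each gene over the dark day was set against that over the light/dark day. This difference is not the contrast that chose the genes, although both share the residual spread. Culd was 7.84 ± 0.51 (log2, SD over times, n = 6) in LD and 8.02 ± 0.45 (n = 6) in DD, a difference of 0.18 ± 0.08 (SE; 95% interval 0.004 to 0.35). It was higher in DD at 4 of 6 clock times, most at 16 h, where it differed by 0.51, and it did not pass in limma (adjusted p 0.999). CG10433 was 9.22 ± 0.32 in LD and 9.08 ± 0.31 in DD, a difference of -0.14 ± 0.07 (-0.29 to 0.01). It was lower in DD at all 6 clock times, as were 1.67% of all probe sets, with 2.03% higher at all 6, and did not pass (adjusted p 0.999).

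For CG13305 the difference was 0.27 ± 0.16 (-0.09 to 0.63), positive at 5 of 6 clock times and -0.47 at 24 h. Dip-B differed by -0.10 ± 0.08 (-0.29 to 0.08). Nagk differed by 0.02 ± 0.08 (-0.15 to 0.19) and CG1441 by 0.002 ± 0.10 (-0.22 to 0.22), each higher in DD at 3 of 6 clock times. None of the 6 genes passed, beside 8 probe sets that were higher in DD (0.0573%) and 4 that were lower (0.0286%), 0.0859% in either direction. At an unadjusted p under 0.05 stood 4.41% of all probe sets, Culd (p 0.0458) among the 6 genes. Without ZT4 and CT12 the Nagk and CG1441 differences turned to -0.04 and -0.02. Single arrays also moved the other differences: Culd was at 0.12 without CT16, and CG13305 at 0.16 without ZT4 or without CT8. Dip-B was at -0.17 without CT12, at -0.06 without ZT24 and at -0.07 without CT20. For tim the difference was -0.72 ± 0.21, lower in DD at 5 of 6 clock times (adjusted p 0.709).

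**Figure D5:**
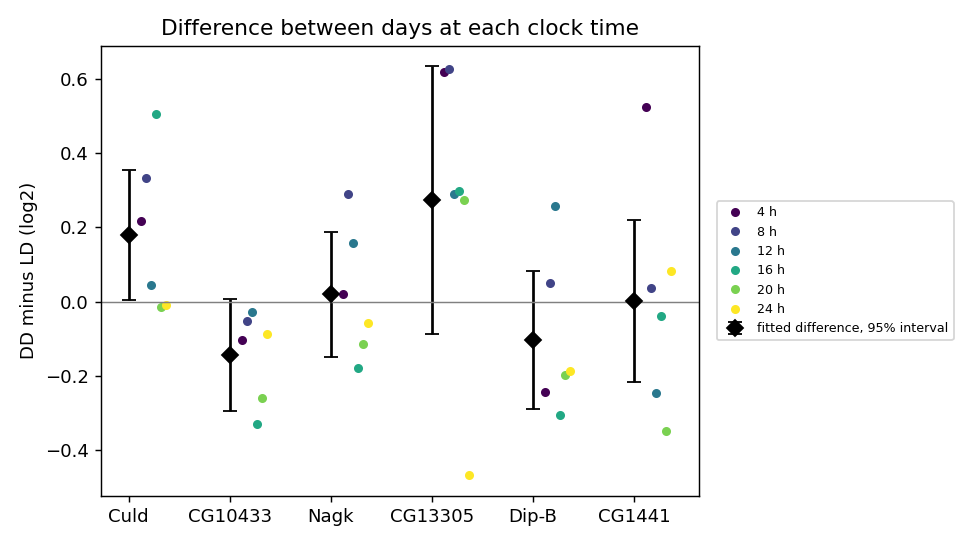
DD minus LD (log2) of the 6 genes; black diamonds are the fitted difference with its 95% interval and coloured points the difference at each clock time. The points of CG10433 all lie below 0, and the intervals of all genes but Culd include 0.

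The light term was the LD minus DD difference at 4, 8 and 12 h, when LD flies had light or were at its end, less the same difference at 16, 20 and 24 h. The estimate was -0.04 ± 0.18 (log2, SE) for Culd, -0.16 ± 0.12 for CG10433 and -0.27 ± 0.12 for Nagk. It was -0.48 ± 0.23 for CG13305, -0.25 ± 0.15 for Dip-B and -0.21 ± 0.22 for CG1441. All 6 were negative, beside 44.1% of all probe sets. In a gene that peaks near dawn, a later DD peak pulls this term below 0 by its arithmetic. The 6 signs are thus not separate from the 6 later DD peaks, and choosing genes on a common curve limits both. None passed in limma (adjusted p 0.998 or above), and no probe set did (0 of 13966, 0%; 3.83% had an unadjusted p under 0.05). The 95% intervals all included 0, the widest being -1.01 to 0.06 for CG13305. The Culd estimate turned positive, at 0.03 without ZT8 or CT8 and at 0.05 without any 1 of ZT20, CT20, ZT24 and CT24, and that of CG1441 at 0.004 without ZT4 or CT4. Culd was at -0.21 without ZT16 or CT16 and at -0.11 without ZT12 or CT12. CG13305 was at -0.23 without ZT24 or CT24. Dip-B was at -0.13 without ZT12 or CT12 and at -0.38 without ZT4 or CT4. CG1441 was at -0.38 without ZT12 or CT12 and at -0.08 without ZT20 or CT20. With ZT12 counted as dark, the estimates were -0.14 for Culd, -0.10 for CG10433, -0.01 for Dip-B and -0.42 for CG1441.

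The genes whose levels followed Culd most closely were searched among 5739 other genes with a mean level at or above the median. The highest Pearson correlations over 12 arrays were 0.89 for tko, 0.88 for CG13305, 0.84 for Nagk, 0.83 for Mdr49, which encodes a multidrug transporter, and 0.82 for CG18507. The lowest were -0.93 for vri, -0.89 for per, -0.86 for the ubiquitin protease gene Usp8, -0.85 for the cuticle protein gene Cpr66D and -0.82 for the cytochrome P450 gene Cyp6a22. By Spearman correlation, vri and per ranked 3 and 4 among the lowest. By Spearman correlation 5 of these 10 genes stayed among the 5 highest or 5 lowest (tko, Nagk, CG13305, vri and per). Culd was chosen on its daily curve, as were CG13305 and Nagk, so genes with a daily curve were favoured at both ends. The values are extremes among 5739 correlations over 12 arrays. They describe these samples only, as do the matches of the other genes below.

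For the other genes, the closest match was Dip-B for Nagk and Nagk for Dip-B (0.92), Culd for CG13305 (0.88), CG17549 for CG1441 (0.86) and Apoltp, which encodes a lipid transfer particle apolipoprotein, for CG10433 (0.84). The most opposite was Usp8 for CG13305 (-0.92), CG4301 for CG1441 (-0.86), the Bomanin peptide gene BomBc2 for Dip-B (-0.81), borr for CG10433 (-0.79) and Ae2, an anion exchanger gene, for Nagk (-0.77).

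Genes lying near the 6 on the chromosome were looked at because they had no part in the choice. The nearest measured gene on each side gave 12 neighbours, some of them with unmeasured genes in between, up to 9. Of the 12 neighbours, 0 passed the rhythm test in limma (0 also at an unadjusted p under 0.05, adjusted p 0.994 or above). Over all probe sets the shares were 0.00716% and 3.34%, so counts of 0 of 12 do not set the neighbours apart. Next to Culd, GAPcenA peaked at 17.7 ± 2.2 h with an amplitude of 0.15. On the other side, past 1 unmeasured gene, Idh, which encodes isocitrate dehydrogenase, peaked at 21.96 ± 2.4 h with 0.36 ± 0.23. Next to CG13305, Cpr66D had an amplitude of 0.09 ± 0.04 and peaked at 12.7 ± 1.5 h, and its correlation with CG13305 was -0.86. The correlations of the other 11 neighbours with their gene ran from -0.48 (Pex7 with CG13305) to 0.30 (CG30222 with CG10433). Culd and CG13305 lie on the same chromosome arm with 45 annotated genes between them.

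Genes of the core clock, and other genes of pathways tied to Culd, Nagk, Dip-B and CG1441, were counted next. No list member passed the rhythm test, the DD minus LD test or the light test, which 0.00716%, 0.0859% and 0% of all probe sets did. Of 14 measured core clock genes, the references tim and vri among them, 0 peaked between 22 and 3 h, beside 17.7% of all probe sets. In this list 7 had an unadjusted rhythm p under 0.05 (3.34% of all probe sets). The median correlation of the list with Culd was -0.43. After tim and vri, the smallest rhythm p were those of Usp8 (peak 13.9 h) and the F-box gene slmb (16.6 h). Clk, the dawn gene of the second loop, had a fitted peak at 3.57 ± 1.22 h and a correlation of 0.60 with Culd. Its mean level of 3.58 lay below every array median. In the DD minus LD test the smallest p of the list were those of tim, slmb (-0.24 ± 0.09), Usp8 (-0.46 ± 0.25) and the repressor gene cwo (0.13 ± 0.09). The list median was -0.08 against 0.00 for all probe sets. Mean levels below every array median were also those of slmb (4.11) and, among others in the lists that follow, fdl (3.64), Oga (3.42), nst (3.07) and CG4770 (3.52).

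The share of all probe sets with a fitted peak between 22 and 3 h was 17.7%, and the counts of the next lists lie near it. Of 12 measured photoreceptor genes, 3 had fitted peaks there: Arr2, the major arrestin gene (0.19 ± 1.1 h), inaD, the scaffold gene of the signalling complex (0.97 ± 1.4 h), and trp, the main light-activated channel gene (0.66 ± 3.9 h). Their correlations with Culd were 0.53, 0.70 and 0.37. For trpl, whose channel Culd helps to traffic, the fitted peak was 16.3 ± 2.1 h and the correlation -0.37. The lowest rhythm p of the list belonged to rdgC, the rhodopsin phosphatase gene (p 0.0178; 18.50 ± 1.1 h), Arr2 (p 0.0187), inaC (p 0.0593; 5.02 h) and inaD (p 0.0658), all with an adjusted p of 0.994. Between days inaD differed by 0.49 ± 0.20, Arr2 by -0.16 ± 0.07, inaC by 0.27 ± 0.12 and trpl by -0.30 ± 0.18 (adjusted p 0.999), and the list median was 0.05.

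Around Nagk, 11 genes of hexosamine synthesis and N-acetylglucosamine handling were measured, and 2 had peaks between 22 and 3 h, beside that 17.7%. The hexosaminidase genes Hexo2 (amplitude 0.19 ± 0.05, peak 9.97 h) and fdl (0.22 ± 0.08, 16.8 h) had the smallest rhythm p, followed by nst (0.09 ± 0.07) and Oga (0.06 ± 0.05). Their median amplitude was 0.06 and their median DD minus LD 0.02; Hexo2 differed by 0.21 ± 0.08, Gfat2 by -0.12 ± 0.07, Gnpnat by -0.22 ± 0.16 and Oga by -0.07 ± 0.07. Around Dip-B, 7 other aminopeptidase and dipeptidase genes had a median amplitude of 0.08 and 1 peak in the window, that of S-Lap5 (23.4 h, amplitude 0.06). S-Lap7 (0.12 ± 0.05, 9.07 h), S-Lap8 (0.13 ± 0.07, 12.4 h) and Dip-A (0.08 ± 0.06) had the smallest rhythm p beside S-Lap5. Between days Psa differed by -0.27 ± 0.10, Dip-A by -0.20 ± 0.08, grsm by -0.16 ± 0.13 and S-Lap8 by 0.03 ± 0.10, with a list median of -0.02.

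Around CG1441, 15 other fatty acyl-CoA reductase genes were measured, with a median amplitude of 0.08, and 3 peaked in the window, beside 17.7% of all probe sets. CG4770 was among these, at 22.6 ± 1.3 h with an amplitude of 0.10 ± 0.04 and an unadjusted p of 0.0492. CG17560 peaked at 8.76 h (0.19 ± 0.06), CG8306 at 17.1 h (0.25 ± 0.10) and CG13091, listed as Sgp, had a peak-to-trough ratio of 2.21. Between days CG12268 had the smallest p of this family, at 0.20 ± 0.05 (unadjusted p 0.00303, adjusted p 0.498), then CG4770 (-0.08 ± 0.05), CG8303 (0.10 ± 0.07) and CG17560 (0.11 ± 0.08). The list median was 0.004.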

How the data were processed

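Per the submitters' processing notes, the authors used RMA, and the deposited table holds its log2 values for each probe set on each array. The sources used here give neither its version nor which arrays were normalized together. RMA gives arrays 1 distribution, which would hide a change shared by most transcripts. Precision is limited by the number of arrays.

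Of 14010 probe sets, 44 controls were left out. Of the rest, 12443 had 1 gene, 327 several and 1196 none in the platform annotation; 12394 matched a RefSeq gene. Fits used limma 3.58.1 in R 4.3.3 on all 13966 with Benjamini-Hochberg adjustment at 0.05: cosine and sine of clock time with regime (8 residual degrees of freedom), and a light term with clock time as factor (4). Standard errors of peaks came from the delta method. The fits were tested on simulated data.

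Members, comparisons, lists (core clock, photoreceptor, hexosamine, aminopeptidase, fatty acyl-CoA reductase, 8 marker lists) and rules were chosen with earlier results of these data known. Named genes are the 6 members, tim, vri, Culd's 5 most and 5 least alike and 1 each for the others, the next 5 dawn probe sets, neighbours and, per list, the 4 smallest p for rhythm and for DD minus LD; Clk, trp, trpl and S-Lap5 rhythm values were added. The test of rhythm between days, the count of later DD peaks, the 3-array omission and the photoreceptor covariate were added after the data were seen. LD and DD samples share a number where they share a clock time on different days, which is not a pairing of animals. Alternatives were normalization, level filter, variance trend, left-out arrays, covariates and ZT12 as dark. Sequences were not analysed here.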

Additional observations from a re-analysis of the deposited data

How the results depend on the processing

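The count of 1 rhythmic probe set was 0 with a variance trend, without ZT4 and CT12, without ZT4, CT4 and CT12, in the LD day alone and in the DD day alone, and 2 with the control difference as a covariate. It ranged from 0 to 1 when single arrays were left out, and was 0 without each array except CT8 and CT16. The 12 probe sets that differed between days became 30 with the control difference and 30 with the photoreceptor score as a covariate. With single arrays left out they ranged from 1 (CT4) to 22 (CT24), with 4 without CT20, 5 without ZT16, CT8 or CT16, 6 without ZT20 and 7 without ZT12. With clock time as a replicate block they were 11, and the block changed no call of the 6 genes (Culd 0.18 ± 0.08, adjusted p 0.94). The DD minus LD sign turned without ZT4 and CT12 for Nagk (-0.0377) and CG1441 (-0.0165), and without ZT4, CT4 and CT12 (-0.0282 and -0.0710). Over single left-out arrays it ranged from -0.0271 to 0.0563 for Nagk and from -0.0741 to 0.0650 for CG1441. The light term then ranged from -0.210 to 0.0495 for Culd and from -0.381 to 0.00367 for CG1441. The median correlation among members moved from 0.70 to 0.12 for residuals, and 5 of 10 genes most or least like Culd remained by Spearman correlation. Of the members' amplitudes over all alternatives 135 stayed within 1 SE of the reported value and 3 moved beyond it, and of their peak times 126 stayed and 12 moved. The count of probe sets shifted with light was 0 in all 19 alternatives, and the later DD peak held for 6 of 6 genes in the 13 tried. These 13 share most of their arrays, and the shift was as small as 0.06 h for Culd without CT20. The cause of these changes was not tested. Signal over background was not measured.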
